A study of Mus musculus with 18 samples.

Results

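The genes described here are 10 mouse CC chemokines that were listed by name: Ccl2, Ccl7, Ccl12, Ccl8, Ccl5, Ccl3, Ccl4, Ccl6, Ccl9 and Ccl22. They are 10 of the 22598 genes in the deposited count files, and all 10 passed the filter on low counts. Their transcripts were measured by RNA sequencing in wild-type primary mouse BMDMs, bone-marrow-derived macrophages, which are grown in culture from marrow cells. The libraries were made after 18 h. There were 6 groups with 3 libraries in each: IFNg with TNF, IFNg with IL1b, IFNg with LPS, IFNg with hypoxia, IFNg alone, and a control. IFNg is interferon gamma, TNF is tumour necrosis factor, IL1b is interleukin 1 beta and LPS is lipopolysaccharide. TNF, IL1b, LPS and hypoxia were tested only on top of IFNg, so an addition cannot be told apart from its combination with IFNg. Nothing in the labels states that the replicates of a group are different animals or different cultures. Each p-value therefore sets a difference against the variation among the libraries at hand, and that variation may be technical.

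CC chemokines are small secreted proteins that draw leukocytes along a gradient by binding G protein-coupled receptors, and they are named for adjacent cysteines near the start of the mature protein. Macrophages are a main source of several of them. Ccl2, Ccl7 and Ccl12 draw monocytes through the receptor Ccr2. Ccl8 of the mouse acts through Ccr8, Ccl3, Ccl4 and Ccl5 draw T cells and monocytes, and Ccl6 and Ccl9 act on cells that carry Ccr1. Ccl22 binds Ccr4, which regulatory T cells carry.

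The coding sequence around the adjacent cysteines shows how closely the members resemble each other and how a read can still tell them apart. Each line gives, for the members shown, 30 bases of the GENCODE M21 coding sequence, 5′ to 3′ on the coding strand, with the pair of cysteine codons in capitals.
Ccl2: gccccactcaccTGCTGCtactcattcacc
Ccl7: aatgcatccacaTGCTGCtatgtcaagaaa
Ccl12: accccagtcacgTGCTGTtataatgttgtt
Ccl8: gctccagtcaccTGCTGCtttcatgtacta
Ccl5: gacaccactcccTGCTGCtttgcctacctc
Ccl4: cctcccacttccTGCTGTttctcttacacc
Ccl6: acttcttcagacTGCTGCttctcttatgcc
Ccl9: gactcttcagatTGCTGCctgtcctataac
Ccl22: gaagacagtatcTGCTGCcaggactacatc
Each member's coding sequence held 1 such pair. The first cysteine was codon 32 to 36 in 8 members, but codon 50 in Ccl6 and codon 57 in Ccl9, so that these 2 genes encode a longer stretch before the motif. Ccl12 and Ccl4 spell the second cysteine TGT and the others shown TGC.

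All members lie on chromosome 11 except Ccl22, which lies on chromosome 8 (mm10, GENCODE M21). The monocyte chemoattractant genes run along the plus strand as Ccl2 (ENSMUSG00000035385, chr11:82035571-82037453), Ccl7 (ENSMUSG00000035373, chr11:82045712-82047525), Ccl12 (ENSMUSG00000035352, chr11:82101845-82103400) and Ccl8 (ENSMUSG00000009185, chr11:82115185-82116799). Farther along are Ccl5 (ENSMUSG00000035042, chr11:83525778-83530518), Ccl9 (ENSMUSG00000019122, chr11:83572919-83578636), Ccl6 (ENSMUSG00000018927, chr11:83587882-83593087) and Ccl3 (ENSMUSG00000000982, chr11:83647844-83649355), all on the minus strand. Ccl4 (ENSMUSG00000018930, chr11:83662584-83664683) follows on the plus strand, and Ccl22 (ENSMUSG00000031779) is at chr8:94745590-94751699 on the plus strand. The coding exons, which the deposited counts cover, number 4 in Ccl6 and Ccl9 and 3 in each of the others. Read sharing within the family was checked because the members are related. Of all stretches of 50 bases, the read length, in the members' coding sequences, 0 occurred in a transcript of another gene. The closest coding sequences were those of Ccl3 and Ccl4, at 68.4% identical bases, then Ccl7 and Ccl8 (65.0%), Ccl8 and Ccl12 (64.8%) and Ccl6 and Ccl9 (64.6%). Gm17268 overlaps Ccl2 and E230016K23Rik overlaps Ccl6 on the other strand, but neither has exons over a member's coding bases.

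Total counts ran from 12270565 to 20952799 per library. CPM stands for the count of a gene relative to the TMM-scaled sum of tested genes in the same library. At these depths 3 counts correspond to 0.151 to 0.255 CPM. The macrophage label was checked against 12 macrophage marker genes, of which 12 were measured, with a summed level of 14155 to 27588 CPM per library. Of markers of other cells, the defining T cell genes Cd3e, Cd3d and Cd3g had 0 counts in all libraries, as did 6 of 7 NK cell markers and the B cell genes Ms4a1 and Pax5. Other genes of the same lists were present. The B cell gene Ighm averaged 639 CPM in control and 9.31 CPM with TNF. Il7r of the T cell list averaged 127 CPM in control and 238 CPM with TNF. Klrk1 of the NK cell list averaged 0.625 CPM in control and 85.1 CPM with IFNg. Genes of granulocyte precursors were present at low levels that differed between groups, and their values stand beside those of Ccl6 and Ccl9. In bulk samples, fewer cells of a type and less RNA per cell cannot be told apart.

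**Figure D1:**
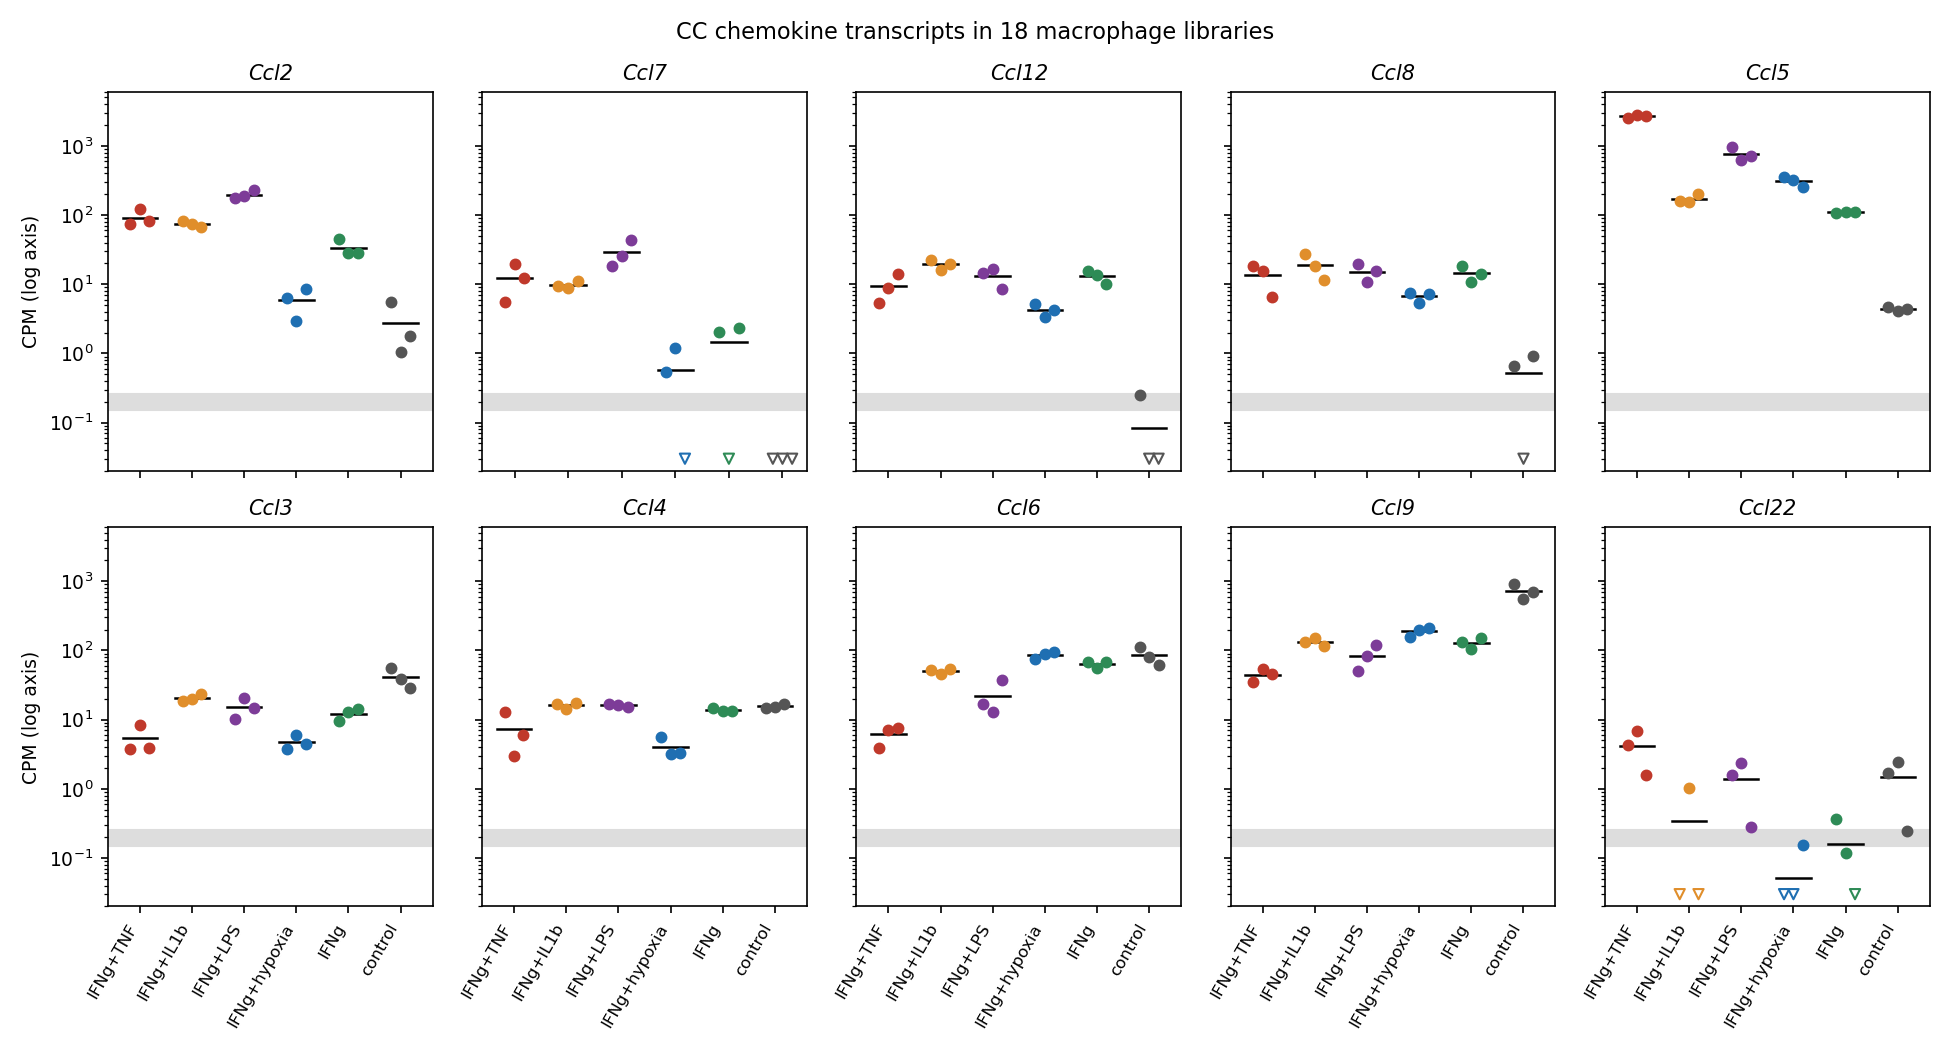
Each panel shows 1 CC chemokine, with CPM on a log axis for the 3 libraries of each group (points) and their mean (line). Open triangles are libraries with 0 counts, drawn at the bottom of the axis, and the grey band is the level of 3 counts in a library, 0.151 to 0.255 CPM. Ccl5 lies at 2547 to 2824 CPM in the 3 TNF libraries and at 4.10 to 4.74 CPM in the control libraries.

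The control macrophages already made CC chemokine transcripts, mostly Ccl9, and IFNg changed which members were present. With IFNg against control, Ccl2, Ccl7, Ccl12, Ccl8 and Ccl5 rose, Ccl3 and Ccl9 fell, and Ccl4, Ccl6 and Ccl22 were not called. A gene is called at an adjusted p under 0.05 in edgeR's quasi-likelihood test over all 11563 tested genes. Over all tested genes, 13.5% were called higher and 10% lower in that comparison. The members' median log2 fold change was 1.68, beside -0.01 for all tested genes.

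TNF added to IFNg split the family evenly. Against IFNg alone, Ccl5, Ccl7, Ccl2 and Ccl22 rose and Ccl6, Ccl9, Ccl3 and Ccl4 fell, while Ccl8 and Ccl12 were not called. Of all tested genes, 22.1% were called higher and 22.6% lower, and the median log2 fold change was -0.29 for the members and -0.05 for all tested genes.

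LPS added to IFNg raised Ccl2, Ccl7 and Ccl5 and lowered Ccl6, where 10.2% of all tested genes were higher and 10.1% lower. The members' median log2 fold change with LPS was 0.27, and that of all tested genes was -0.00. Hypoxia added to IFNg lowered Ccl2, Ccl4, Ccl12 and Ccl3 and raised Ccl5, with 11.8% of all tested genes lower and 13.5% higher. With hypoxia the members' median was -1.36, beside -0.01 for all tested genes. IL1b added to IFNg gave 1 call among the members, a rise of Ccl5, where 0.268% of all tested genes were called higher and 0.0346% lower. That call was lost when any of the 3 IFNg libraries or the third IL1b library was left out. The members' median with IL1b was 0.61, beside -0.00 for all tested genes. These 4 comparisons share the 3 IFNg libraries, so their results are not independent of one another.

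**Figure D2:**
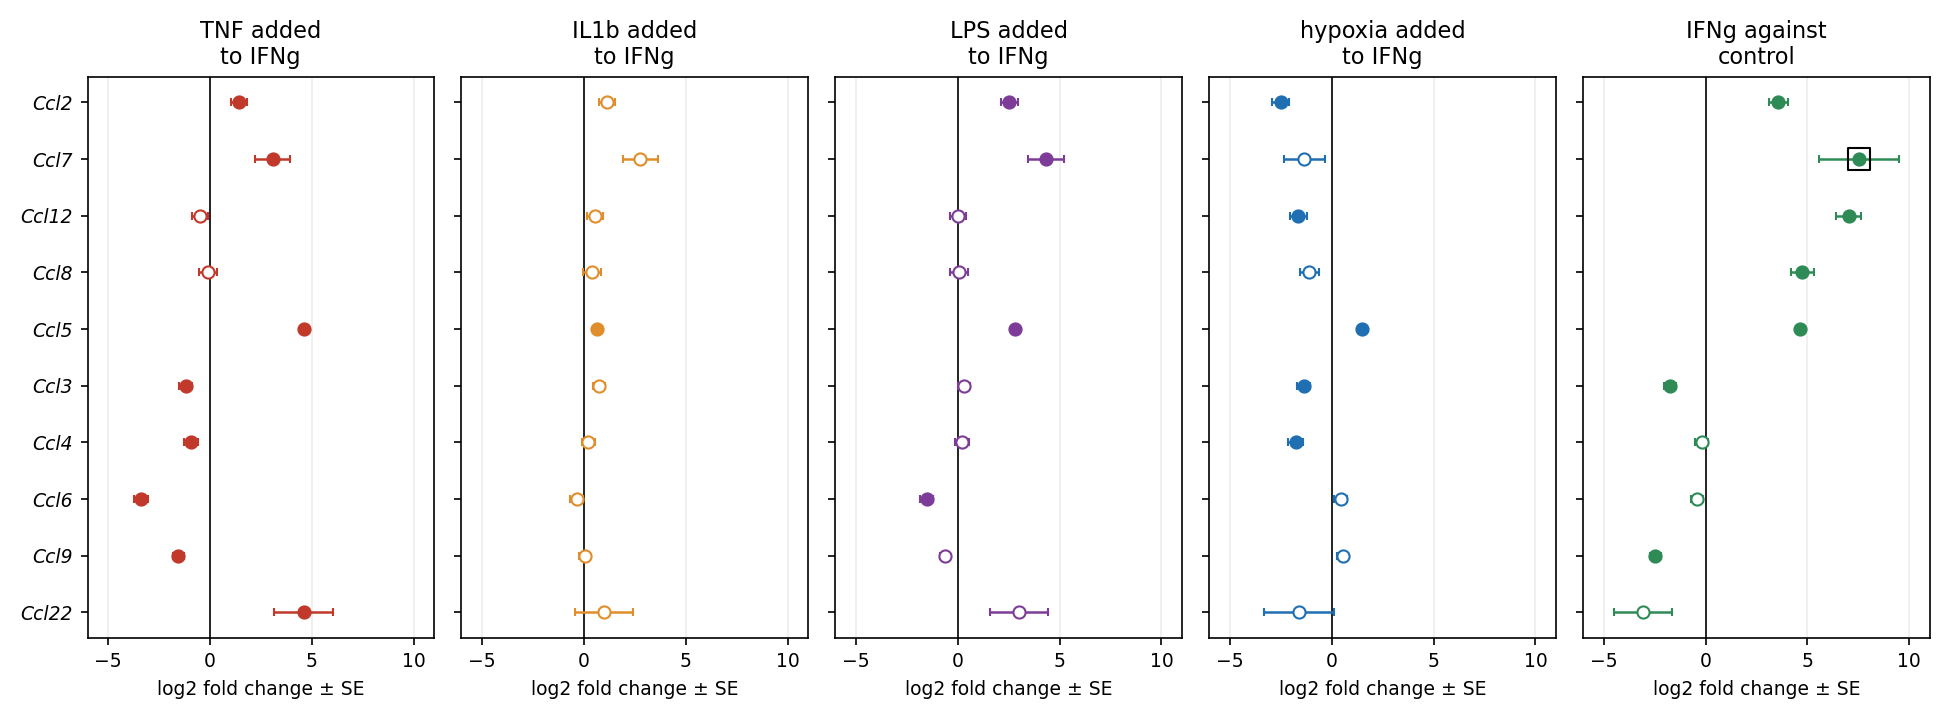
Log2 fold change ± SE of each member for 4 additions against IFNg and for IFNg against control, from 3 libraries per group. Filled points passed an adjusted p of 0.05, open points did not, and a black square marks Ccl7, whose control libraries all had 0 counts, so that its fitted value is not a measured size. Ccl5 is the gene to the right of 0 with a filled point in all 5 panels.

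Against control, each of the 4 combinations called Ccl5, Ccl7, Ccl8 and Ccl12 higher and Ccl3 and Ccl9 lower. These comparisons share the control libraries. With IFNg and TNF, 5 members were higher and 4 lower, where 25.7% and 24.2% of all tested genes were. With IFNg and IL1b the members' counts were 5 higher and 2 lower, beside 14.9% and 11.8% of all tested genes. With IFNg and LPS they were 5 and 3, beside 19.5% and 17.3%. With IFNg and hypoxia they were 4 and 4, beside 21% and 19.1%, and Ccl2 was the member called higher in the other combinations that was not called there (adjusted p = 0.0977). Ccl7, at 9.71-fold or more and an adjusted p of 0.0485 with hypoxia, lost its call under 4 other settings and when any of 5 of the 6 libraries was left out, all but the third hypoxia library. Ccl2 with hypoxia passed when the first control library (adjusted p = 0.000715) or the second hypoxia library (adjusted p = 0.0336) was left out. The call of Ccl3 with IL1b was lost without the first control library (adjusted p = 0.132) or the first or second IL1b library, and that of Ccl4 with TNF without the second TNF library (adjusted p = 0.0646). The members' median log2 fold changes against control were 3.10 with TNF, 2.36 with IL1b, 2.43 with LPS and 0.54 with hypoxia, and they were the same with Ccl7 set to its lower bound. The medians of all tested genes ran from -0.04 to -0.01 in these 4 comparisons.

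How the libraries were scaled moved the split of calls over all genes. With library totals implied by the deposited RPKM values in place of TMM, the share of all calls that were higher was 29.7% instead of 49.5% for TNF against IFNg, 40.0% instead of 50.4% for LPS, 25.7% instead of 53.3% for hypoxia, and 40.2% instead of 57.4% for IFNg against control. Against control it was 27.5% instead of 51.5% with TNF, 40.7% instead of 55.8% with IL1b, 35.0% instead of 52.9% with LPS and 25.8% instead of 52.3% with hypoxia. Those totals moved the all-gene median log2 fold change by -0.32 for TNF, -0.08 for LPS, -0.24 for hypoxia and -0.15 for IFNg against control. Against control the shifts were -0.47 with TNF, -0.15 with IL1b, -0.23 with LPS and -0.40 with hypoxia. Among the members, no called direction turned round under those totals, and 1 of the calls was lost, that of Ccl7 with hypoxia against control.

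Ccl2, the main monocyte chemoattractant of the macrophage, was highest with LPS and lowest among the IFNg groups with hypoxia. It had 73.5, 121 and 81.6 CPM with TNF, 80.7, 74.8 and 67.0 CPM with IL1b, 175, 186 and 229.8 CPM with LPS, and 6.29, 2.89 and 8.65 CPM with hypoxia, against 45.1, 27.9 and 28.5 CPM with IFNg alone. The control libraries had 5.55, 1.04 and 1.76 CPM. Every LPS library was above every other library, the TNF and IL1b libraries overlapped each other above IFNg, and the hypoxia libraries overlapped the control. The log2 fold change against IFNg was 2.54 ± 0.40 with LPS (adjusted p = 0.00021) and 1.44 ± 0.39 with TNF (adjusted p = 0.00645). With hypoxia Ccl2 fell by 2.50 ± 0.43 on the log2 scale (adjusted p = 0.000464). The IL1b libraries stood above the IFNg libraries with a log2 fold change of 1.13 ± 0.38, but this did not pass the test over all genes (adjusted p = 0.542). It passed at an adjusted p of 0.00257 when only these 2 groups entered the fit. IFNg alone raised Ccl2 to 33.8 ± 9.75 CPM, against 2.78 ± 2.42 CPM in control (SD, n = 3 each). On the log2 scale that difference was 3.56 ± 0.46 (adjusted p = 2.07e-05 in edgeR).

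Ccl7, which shares the receptor Ccr2 with Ccl2, followed a like order at a lower level. It had 5.50, 19.5 and 12.4 CPM with TNF, 9.42, 8.88 and 11.3 CPM with IL1b, 18.1, 25.6 and 43.2 CPM with LPS and 0.530, 1.19 and 0 CPM with hypoxia, against 2.03, 0 and 2.32 CPM with IFNg. All 3 control libraries had 0 counts. Ccl7 was therefore at least 25.2-fold higher with IFNg alone than in control, with 3 counts over the control group as the floor (adjusted p = 0.0114), and at least 493-fold higher with IFNg and LPS. One IFNg library had no count, so the IFNg and control libraries were not fully apart. Against IFNg, LPS raised Ccl7 by 4.32 ± 0.89 (adjusted p = 0.00252) and TNF by 3.10 ± 0.86 (adjusted p = 0.00857) on the log2 scale. IL1b libraries were all above the IFNg libraries at a log2 fold change of 2.77 ± 0.85, without passing the test (adjusted p = 0.411).

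Ccl12 and Ccl8 were nearly absent without IFNg and were not called with any of the 3 soluble additions. Ccl12, a Ccr2 ligand of the mouse, had 15.7, 13.7 and 9.98 CPM with IFNg, against 0.252, 0 and 0 CPM in control, where 5 reads were counted in all. Its log2 fold change was 7.02 ± 0.61 (adjusted p = 5.69e-10). Ccl8 had 18.3, 10.9 and 13.9 CPM with IFNg, against 0.656, 0 and 0.908 CPM in control, which is 4.75 ± 0.58 higher on the log2 scale (adjusted p = 1.18e-06). In both genes the IFNg libraries were all above the control libraries. Ccl12 had 5.33, 8.81 and 13.9 CPM with TNF, 22.7, 16.3 and 19.4 CPM with IL1b and 14.5, 16.6 and 8.43 CPM with LPS. Ccl8 had 18.6, 15.7 and 6.44 CPM with TNF, 27.7, 18.6 and 11.4 CPM with IL1b and 19.4, 10.7 and 15.4 CPM with LPS. The IL1b libraries of Ccl12 were all above those of IFNg, and the other groups overlapped IFNg. TNF, IL1b and LPS gave no call for either gene, with log2 fold changes against IFNg of -0.50 to 0.57 for Ccl12 and -0.08 to 0.42 for Ccl8. The 95% intervals of those differences were as wide as -1.26 to 0.27 for Ccl12 with TNF and -0.97 to 0.81 for Ccl8 with TNF.

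Hypoxia was the exception for this pair. Ccl12 had 5.17, 3.32 and 4.17 CPM with hypoxia and fell by 1.63 ± 0.41 on the log2 scale against IFNg (adjusted p = 0.00357). Ccl8 had 7.49, 5.28 and 7.26 CPM with hypoxia, also below every IFNg library, with a log2 fold change of -1.10 ± 0.47 that did not pass (adjusted p = 0.0915). Ccl8 passed with DESeq2 (adjusted p = 0.0455), under the RPKM totals (0.0345) and with only these groups in the fit (0.00395). Both genes stayed above control with hypoxia, at log2 fold changes of 5.39 ± 0.63 for Ccl12 and 3.65 ± 0.58 for Ccl8.

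The upstream sequences of Ccl12 and Ccl8 are shown because these neighbours had the most similar profiles over the 6 groups of any pair of members. Each gene's group means were centred on its own mean, so the levels themselves were not compared. The lines give the plus strand of chromosome 11, 5′ to 3′ (RefSeq, GRCm38.p6), from 147 bases before each gene's start, with bases that are identical in the alignment of both genes in capitals.
Ccl12 (chr11:82101698-82101754): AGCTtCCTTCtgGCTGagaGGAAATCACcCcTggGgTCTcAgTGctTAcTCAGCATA
Ccl8 (chr11:82115038-82115092): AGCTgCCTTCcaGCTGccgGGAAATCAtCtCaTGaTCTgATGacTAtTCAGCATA
Of 58 alignment columns, 41 were identical, and both stretches start at the same distance from the gene's start. RefSeq's promoter table held 6 of the members, Ccl22, Ccl12, Ccl8, Ccl9, Ccl6 and Ccl3. Motifs were searched on both strands, from 250 bases before to 50 after the start. The interferon-response core GAAANNGAA was in 1 of the 6, Ccl3, and in 8.56% of 32851 promoters. A kappaB motif was in 1, Ccl9, and in 8.46% of promoters, and the hypoxia-response core ACGTG was in 0 and in 19.6%. The matches did not overlap each other. A match describes letters only, and its absence says nothing of a factor outside this window.

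Ccl5 (RANTES), which draws T cells, NK cells and monocytes, was the member that rose in every comparison with IFNg or an addition to it. It had 2547, 2824 and 2675 CPM with TNF, 162, 153 and 198 CPM with IL1b, 946, 619 and 709.5 CPM with LPS and 355, 323 and 251 CPM with hypoxia, against 108, 109.7 and 109.8 CPM with IFNg. The control libraries had 4.74, 4.10 and 4.36 CPM. The 6 groups stood apart in the order TNF, LPS, hypoxia, IL1b, IFNg and control, with no overlap between neighbours. IFNg raised it 24.8-fold over control (log2 4.63 ± 0.17, adjusted p = 8.23e-18).

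On top of IFNg, TNF raised Ccl5 24.6-fold (log2 4.62 ± 0.16, adjusted p = 2.5e-18) and LPS 6.95-fold (log2 2.80 ± 0.15, adjusted p = 7.73e-14). Hypoxia raised it 2.84-fold (log2 1.51 ± 0.14, adjusted p = 5.68e-09) and IL1b 1.57-fold (log2 0.65 ± 0.14, adjusted p = 0.0292). Between the 2 strongest additions, LPS was below TNF by a log2 fold change of -1.82 ± 0.14 (adjusted p = 1.93e-10). The sizes of the other additions were not tested against each other. Ccl5 spanned 9.21 log2 units between its highest and lowest group means, rank 32 of 11563 tested genes. NK and T cells also make Ccl5. Of the NK cell list only Klrk1 was tested, at 18.1 to 21.6 CPM in TNF libraries, against 76.9 to 95.6 CPM in IFNg libraries and 0 to 1.77 CPM in control libraries. The other 6 NK markers had 0 counts in all libraries. Of 9 T cell markers 4 were tested. The sum over all 9 was 183 to 284 CPM with TNF and 43.1 to 60.4 CPM with IFNg, and 125 to 141 CPM in control. Nearly all of that sum was Il7r, at 238 ± 54.9 CPM with TNF and 51.3 ± 9.18 CPM with IFNg, while Cd4 averaged 0.738 CPM with TNF and 0.978 CPM with IFNg. Il7r and Cd247 were called higher with TNF against IFNg, Cd247 at 2.90 ± 1.73 and 0.321 ± 0.282 CPM. Lck averaged 1.75 CPM with TNF and 0.515 CPM with IFNg, without a call. Cd3e, Cd3d and Cd3g were at 0, and the part of these cells in the level of Ccl5 was not tested.

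Ccl3 and Ccl4, the macrophage inflammatory proteins, moved apart from Ccl5. Ccl3 had 3.78, 8.48 and 3.92 CPM with TNF, 18.7, 19.9 and 23.2 CPM with IL1b, 10.3, 20.6 and 14.5 CPM with LPS and 3.78, 6.04 and 4.40 CPM with hypoxia, against 9.64, 12.9 and 14.1 CPM with IFNg. The control libraries were higher than all of these, at 55.8, 38.6 and 28.6 CPM. Ccl3 therefore fell with IFNg against control by a log2 fold change of -1.75 ± 0.31 (adjusted p = 8.6e-05), and further with TNF (-1.17 ± 0.32, adjusted p = 0.00388) and hypoxia (-1.37 ± 0.33, adjusted p = 0.00251) against IFNg. IL1b libraries were all above IFNg libraries at a log2 fold change of 0.75 ± 0.31 that did not pass (adjusted p = 0.774).

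Ccl4 differed from Ccl3 in its response to IFNg. It had 14.6, 13.2 and 13.4 CPM with IFNg, against 14.8, 15.3 and 16.9 CPM in control, a log2 difference of -0.19 ± 0.33 that was not called, with a 95% interval of -0.85 to 0.46. With TNF it had 12.8, 3.02 and 5.97 CPM, and with hypoxia 5.63, 3.15 and 3.24 CPM, all below the IFNg libraries. The log2 fold change was -1.77 ± 0.36 with hypoxia (adjusted p = 0.000454) and -0.91 ± 0.34 with TNF (adjusted p = 0.0322). The TNF call was lost when any of 5 of the 6 libraries was left out, with adjusted p-values up to 0.189. Per kb of coding length, the level of Ccl3 was 0.658 to 1.05 times that of Ccl4 in IFNg libraries, against 1.69 to 3.78 times in control libraries.

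Ccl6 and Ccl9 are chemokines of the mouse that resting myeloid cells make without a stimulus. Ccl9, the dominant member of the control, had 133, 105 and 152 CPM with IFNg, against 901, 554 and 689.9 CPM in control (log2 fold change -2.46 ± 0.27, adjusted p = 2.17e-06). TNF lowered it again, to 34.8, 54.3 and 45.5 CPM (-1.54 ± 0.27 against IFNg, adjusted p = 0.000164). With LPS it had 49.7, 83.5 and 119.6 CPM, overlapping IFNg, and with hypoxia 156, 197 and 213 CPM, above every IFNg library, and neither was called (adjusted p = 0.11 for LPS and 0.154 for hypoxia). Without the third LPS library, the LPS difference was -0.96 on the log2 scale and passed at an adjusted p of 0.0132.

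Ccl6 did not pass the test with IFNg but fell with TNF and LPS. It had 67.3, 55.6 and 68.4 CPM with IFNg, against 114, 79.2 and 61.6 CPM in control, and the groups overlapped. With TNF it had 3.89, 7.10 and 7.46 CPM, and with LPS 16.6, 12.8 and 37.4 CPM. The log2 fold changes against IFNg were -3.39 ± 0.35 with TNF (adjusted p = 1.33e-07) and -1.53 ± 0.31 with LPS (adjusted p = 0.0013). With hypoxia Ccl6 had 75.3, 88.9 and 94.6 CPM, above the IFNg libraries without a call (adjusted p = 0.333). The level of Ccl9 per kb was 5.81 to 8.52 times that of Ccl6 in TNF libraries and 1.97 to 2.14 times in hypoxia libraries, against 1.79 to 2.12 times in IFNg libraries and 6.65 to 10.6 times in control libraries.

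The summed levels of granulocyte precursor and B cell markers were below IFNg with TNF and LPS, as Ccl6 was. Both sums were also below IFNg with hypoxia, where Ccl6 and Ccl9 were above IFNg, but single markers differed. Of 10 markers of neutrophils and granulocyte precursors 8 were tested. The sum over all 10 was 8.17 to 14.4 CPM with TNF, 22.3 to 35.8 CPM with LPS and 63.4 to 92.8 CPM with hypoxia. With IFNg it was 106 to 125 CPM. In control libraries, where Ccl9 was highest, it was 82.7 to 132 CPM, overlapping IFNg. Against IFNg, 8 of the tested markers were called lower with TNF, 7 with LPS and 0 with hypoxia. Over all tested genes 22.6%, 10.1% and 11.8% were lower in these comparisons. The precursor gene Elane was at 0 counts in all TNF and LPS libraries. Of 6 B cell markers Cd79b and Ighm were tested. The sum over all 6 was 7.28 to 12.6 CPM with TNF, 63.3 to 109.6 CPM with LPS and 249.6 to 283 CPM with hypoxia. It was 505 to 579 CPM with IFNg and 574 to 749.7 CPM in control, and most of it was Ighm. With hypoxia against IFNg, Ighm was called lower, averaging 247 and 534 CPM. Cd79b was called higher, averaging 14.3 and 5.52 CPM. With IL1b the granulocyte precursor sum was 83.1 to 97.2 CPM and the B cell sum 451 to 477 CPM, both below IFNg. Ccl6 had 51.4, 45.2 and 53.5 CPM with IL1b, also below every IFNg library. Ccl9 had 134, 149 and 117 CPM there, overlapping IFNg. None of these genes or markers was called with IL1b against IFNg. The part of these cells in the levels of Ccl6 and Ccl9 was not tested.

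Ccl22, which draws Ccr4-bearing T cells and is known from dendritic cells and alternatively activated macrophages, had the lowest mean level per kb of the 10 members in all groups but the control, where Ccl7, Ccl12 and Ccl8 were lower. It had 4.33, 6.77 and 1.57 CPM with TNF and 1.56, 2.36 and 0.279 CPM with LPS, against 0.365, 0.118 and 0 CPM with IFNg, where 9 reads were counted in all. The TNF libraries were all above the IFNg libraries, and the log2 fold change was 4.60 ± 1.47 (adjusted p = 0.0125). This call was lost without the second TNF library (adjusted p = 0.0522) or the third IFNg library (adjusted p = 0.0545). The hypoxia libraries had 0, 0 and 0.154 CPM, 2 counts in all, against 1.72, 2.45 and 0.242 CPM in the control libraries, 78 counts in all. That is a ratio to control of 0.0340 with a 95% counting interval of 0.00404 to 0.127. Ccl22 was called lower there (adjusted p = 0.0257), a call lost without the first or second hypoxia library or the second control library. Of 12 dendritic cell markers 11 were tested, and none of the 12 was at 0 in all libraries. The sum over all 12 was 129 to 167 CPM with TNF and 112 to 127 CPM with IFNg. In control it was 38.1 to 50.2 CPM. With TNF against IFNg the members of that list went both ways. Itgax had 82.7 ± 12.9 CPM with TNF and 20.6 ± 6.43 CPM with IFNg, and Ccr7, which is also a chemokine receptor, was higher too, but Clec9a had 13.2 ± 0.787 CPM with TNF and 83.9 ± 2.84 CPM with IFNg. The median log2 fold change of the tested markers was -1.14, with 3 called higher and 1 lower. Their part in the result was not tested.

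The direct comparison of LPS with TNF, both on top of IFNg, set the chemokines under the 2 stimuli side by side. With LPS, Ccl2, Ccl3, Ccl4, Ccl6 and Ccl9 were higher and Ccl5 was lower than with TNF, where 12.2% of all tested genes were higher and 13.1% lower. Under the RPKM totals 74.8% of all calls were higher, against 48.1% under TMM, with a median shift of 0.24. The largest difference upward was that of Ccl6, at 22.2 ± 13.2 CPM with LPS and 6.15 ± 1.96 CPM with TNF (log2 1.86 ± 0.34, adjusted p = 0.00037). Ccl3 had 15.1 ± 5.20 CPM with LPS and 5.39 ± 2.67 CPM with TNF (log2 1.49 ± 0.32, adjusted p = 0.000953). Ccl2 differed by 1.10 ± 0.38 (adjusted p = 0.0444), a call lost under 3 other settings and without any of 5 libraries, all but the second TNF library. Without the third TNF library, 3 members were called, Ccl3, Ccl6 and Ccl5. Ccl4 also lost its call without the second TNF library, and Ccl9 without the first TNF or the third LPS library. The members' median log2 fold change was 1.0, beside 0.02 for all tested genes.

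Summed over the 10 members, the level per kb of coding length was 10242 ± 608 with TNF, 1582 ± 51.5 with IL1b, 3788 ± 521 with LPS and 1962 ± 103 with hypoxia, against 1194 ± 102 with IFNg and 2413 ± 578 in control (CPM per kb, SD, n = 3 each). Ccl5 made up most of the sum with TNF, LPS and hypoxia, and Ccl9 most of it in control. Ccl5 was 94.9% ± 0.776 of the sum with TNF, 39.1% ± 4.49 with IL1b, 72.1% ± 7.11 with LPS and 57.0% ± 7.24 with hypoxia, against 33.3% ± 3.16 with IFNg and 0.677% ± 0.104 in control. Ccl9 was 1.18% ± 0.190 of the sum with TNF, against 29.4% ± 3.29 with IFNg and 80.2% ± 3.33 in control. Ccl2 had its largest share with LPS, 11.8% ± 2.30, followed by IL1b at 10.5% ± 1.10, and the libraries of those groups overlapped. Ccl7, Ccl12 and Ccl8 averaged at most 4.14% each in any group.

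**Figure D3:**
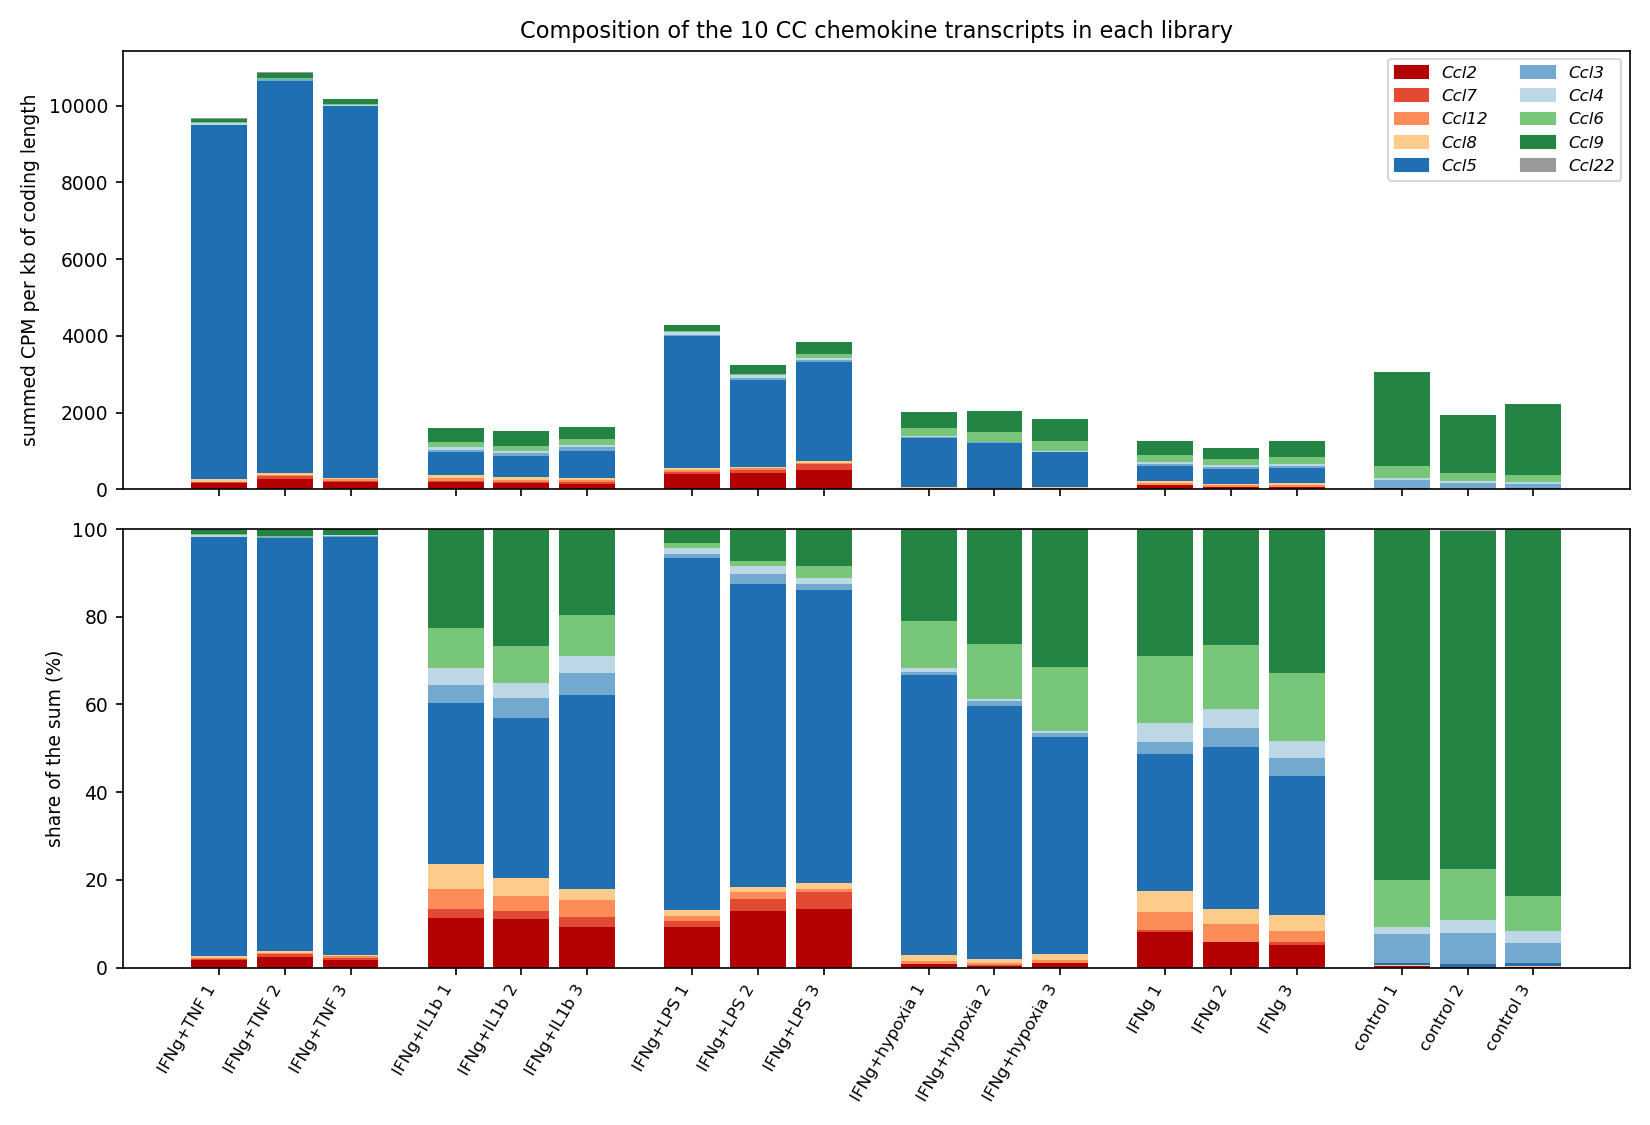
Stacked bars show the level of each CC chemokine in each of the 18 libraries, as CPM per kb of coding length (top) and as a share of the sum over the 10 genes in percent (bottom). Ccl5 (dark blue) fills 94.0 to 95.4% of each TNF library, and Ccl9 (dark green) fills 77.1 to 83.8% of each control library.

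The members' profiles over the 6 groups were compared by the root-mean-square difference of their centred group means of log2 CPM, as a description. The closest pairs were Ccl12 and Ccl8 at 0.47, Ccl3 and Ccl4 at 0.55, Ccl6 and Ccl9 at 0.82, and Ccl2 and Ccl7 at 0.86. The genes of each pair are neighbours among the members on chromosome 11. Among all other tested genes, the 3 profiles nearest to Ccl5 were Rasgrp1 (0.25), a guanine nucleotide exchange factor for Ras, then Ifi205 (0.50) and Hcar2 (0.52). Ccl9 was nearest to Spp1 (0.13), which encodes osteopontin, then Folr1 (0.17) and Enthd1 (0.19). Ccl6 was nearest to Il16 (0.17), Itgb5 (0.19) and Fkbp7 (0.21). Ccl3 was nearest to Rtl10 (0.18), Cyp2j6 (0.24) and Svip (0.25), and Ccl4 to Bpgm (0.17), Nhlrc1 (0.18) and Mecr (0.19). Ccl8 was nearest to Calhm6 (0.35), Tgtp2 (0.41) and Hsh2d (0.43), and Ccl12 to Pla2g16 (0.57), Ocstamp (0.64) and Calhm6 (0.69). Ccl22 was nearest to Col4a2 (0.34), Layn (0.43) and Fam20c (0.44). Ccl2 was nearest to Adgrf3 (0.75), Rgs1 (0.77) and Gca (0.82), and Ccl7 to Saa3 (1.14), Adgrf3 (1.15) and Hrh2 (1.25), the widest distances to a nearest gene among the 10 members.

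**Figure D4:**
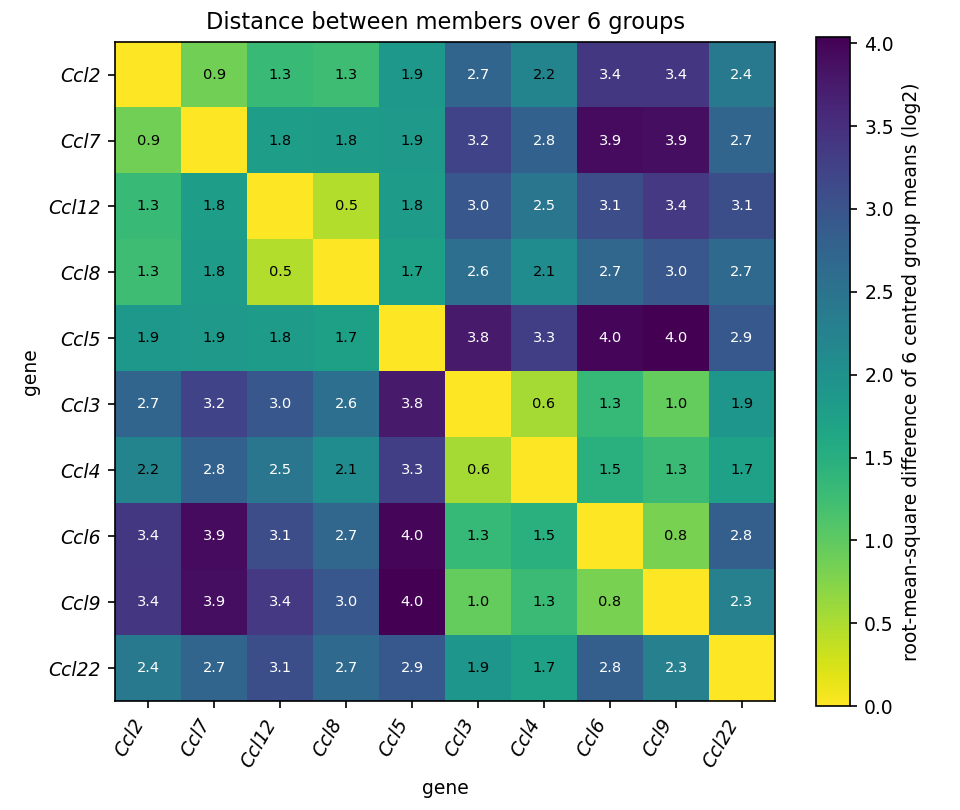
Heat map of the root-mean-square difference between the 6 centred group means (log2 CPM) of each pair of CC chemokines, with dark cells for unlike profiles. The lightest cells off the diagonal are Ccl12 with Ccl8 (0.47), Ccl3 with Ccl4 (0.55), Ccl6 with Ccl9 (0.82) and Ccl2 with Ccl7 (0.86).

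Other CC ligands were nearly absent from these cells. Of 11 such genes, 8 had 0 counts in all libraries and 2 were tested. Ccl24, an eosinophil chemoattractant, had 0 counts in all TNF, LPS and hypoxia libraries, 0.618 ± 0.591 CPM with IFNg and 1.43 ± 0.495 CPM in control (SD, n = 3 each). It was at least 22.1-fold lower with IFNg and TNF than in control (adjusted p = 0.0121). Ccl25 had 2.34 ± 1.39 CPM with IFNg and TNF, against 0.344 ± 0.403 CPM in control (adjusted p = 0.0282), a call lost under the RPKM totals (adjusted p = 0.0559). It averaged 1.85 CPM with IFNg alone, 1.84 CPM with IL1b, 2.26 CPM with LPS and 1.03 CPM with hypoxia. Ccl25 was also called higher with IFNg and LPS against control, a call lost under the RPKM totals too (adjusted p = 0.0541). TNF against IFNg gave no call for Ccl25.

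Of 17 CC receptors and scavengers 10 were tested. Ccr4, the receptor for Ccl22, and Ccr8, the receptor for Ccl8, had 0 counts in all libraries. Against IFNg, 3 were higher and 2 lower with TNF and with LPS, 2 were higher with hypoxia and 0 were called with IL1b, while 3 were higher with IFNg against control. Over all tested genes the shares were 22.1% higher and 22.6% lower with TNF, 10.2% and 10.1% with LPS, and 13.5% higher both with hypoxia and with IFNg against control, so that the TNF counts are near the share over all genes. Ccr2, the receptor for Ccl2, Ccl7 and Ccl12, had 30.2 ± 7.97 CPM with TNF and 131 ± 42.4 CPM with LPS, against 497 ± 31.7 CPM with IFNg, with log2 fold changes of -4.05 ± 0.21 (adjusted p = 8.65e-13) and -1.93 ± 0.19 (adjusted p = 1.23e-07). Of the 1073 stretches of read length in the coding sequence of Ccr2, 110 also occur in another gene, so reads there could belong to either.

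Ccr1, which Ccl6 and Ccl9 act through, rose with TNF, LPS and hypoxia. It had 91.3 ± 17.1 CPM with TNF, 52.5 ± 5.88 CPM with LPS and 90.1 ± 7.96 CPM with hypoxia, against 12.9 ± 0.919 CPM with IFNg. With hypoxia the libraries of Ccr2 had 337 to 451 CPM, all below the IFNg libraries (464 to 527 CPM), without a call. Ccr7, the receptor for lymph node homing, had 37.5 ± 8.25 CPM with TNF and 1.14 ± 1.45 CPM with IFNg (log2 5.08 ± 0.64, adjusted p = 6.49e-07). Ccrl2, an atypical receptor that binds chemerin, had 874 ± 80.6 CPM with TNF and 56.2 ± 9.21 CPM with IFNg (log2 3.96 ± 0.16, adjusted p = 5.17e-17).

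**Figure D5:**
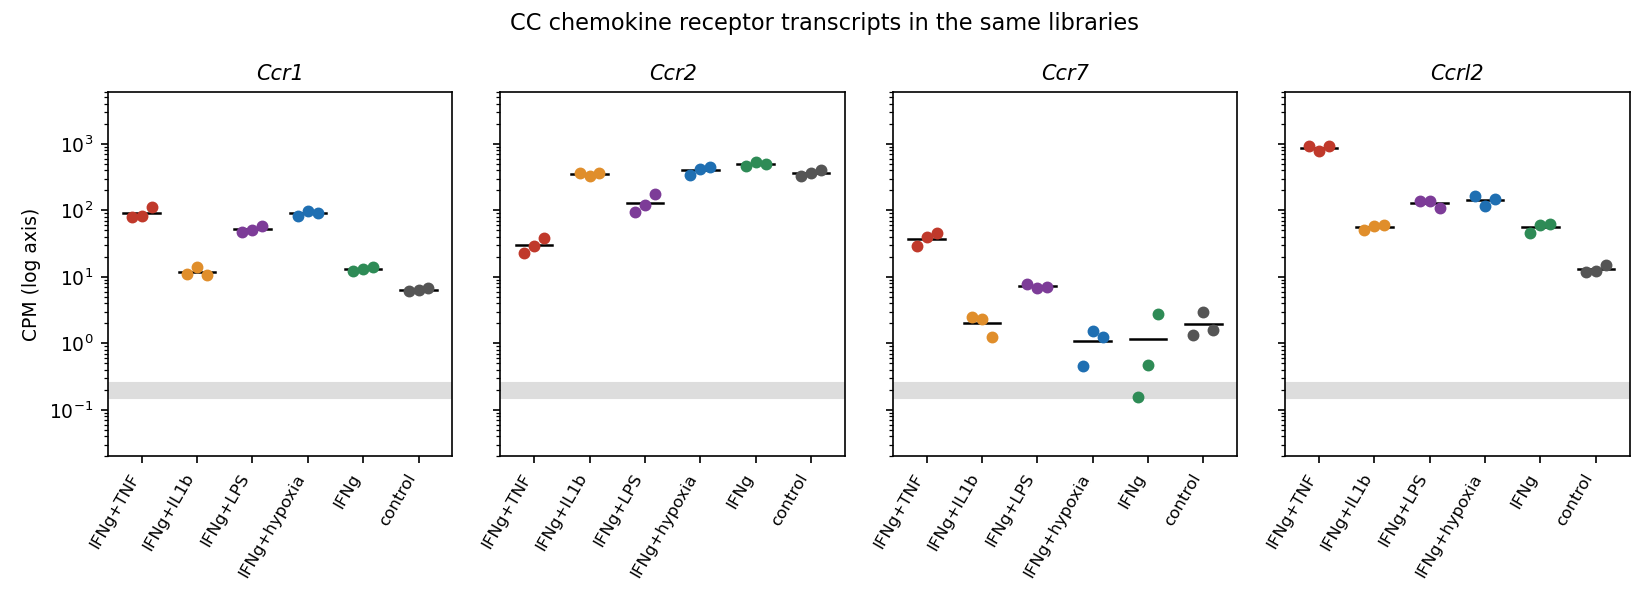
CPM on a log axis of 4 CC receptor genes in the 3 libraries of each group (points) with the mean (line), and the grey band as the level of 3 counts in a library. Ccr2 lies at 22.9 to 38.7 CPM in the TNF libraries and at 464 to 527 CPM in the IFNg libraries, while Ccrl2 lies at 781 to 923 CPM with TNF and 45.7 to 62.3 CPM with IFNg.

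Genes that act on chemokine mRNA or trim chemokine proteins were measured in full, 12 of 12. TNF against IFNg called 6 higher (Mmp14, Mmp12, Zfp36, Zc3h12a, Rc3h1 and Rc3h2) and 3 lower (Dpp4, Zfp36l2 and Zfp36l1). LPS called Mmp14, Mmp12 and Zfp36 higher and Zfp36l1 lower, hypoxia called Mmp12, Dpp4, Zfp36l1 and Zfp36 higher, and IL1b called Mmp14 higher. IFNg against control called Dpp4 higher and Mmp12 and Zfp36l1 lower. Over all tested genes 22.1% were higher and 22.6% lower with TNF, 10.2% and 10.1% with LPS, 13.5% and 11.8% with hypoxia, 0.268% and 0.0346% with IL1b, and 13.5% and 10% with IFNg against control. Zfp36, which encodes the mRNA decay factor tristetraprolin, had 708 ± 169 CPM with TNF and 263 ± 14.1 CPM with LPS, against 181 ± 10.2 CPM with IFNg. Mmp14, a membrane metalloproteinase, had 266 ± 34.9 CPM with TNF and 75.0 ± 22.3 CPM with LPS, against 1.82 ± 0.608 CPM with IFNg (log2 7.20 ± 0.38 with TNF, adjusted p = 7.43e-12). Mmp12, a macrophage elastase that cleaves CC chemokines, had 6.34 ± 0.363 CPM with IFNg and 201 ± 15.0 CPM in control (adjusted p = 4.12e-16). Dpp4, a peptidase that trims the start of Ccl5 and Ccl22, had 86.6 ± 6.29 CPM with hypoxia, against 11.8 ± 2.43 CPM with IFNg (log2 2.87 ± 0.27, adjusted p = 6.49e-09).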

How the data were processed

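The authors deposited 1 table per library with whole-number read counts, a feature width and RPKM for each gene. Reads of single-end 50-base stranded poly(A) libraries were aligned with GSNAP to mm10, per the submitters' processing notes and the labels' protocols. Which counter and annotation were used, and whether strand was, is not stated in the sources used here. Of the deposited widths, 86.7% were multiples of 3, so counts were treated as coding counts. The RPKM values deposited by the authors served only to derive library totals (22728833 to 39859629 reads).

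Counts were fitted with edgeR 4.0.16 (R 4.3.3) as 1 model of 6 group means across all 18 libraries, with TMM scaling (factors 0.805 to 1.19), default filterByExpr, the robust quasi-likelihood test and Benjamini-Hochberg adjustment over 11563 genes within each of 10 comparisons. The fit was tested on simulated data with a fixed spread and with changes planted only in genes above a set mean level with IFNg. Ccl7 and Ccl22 lay below that level, so that test does not cover low counts such as theirs. SEs come from the fold change and the F statistic. Alternatives were median-of-ratios factors, RPKM totals, no filter, DESeq2 1.42.0, the compared groups alone, a block by number, and leaving out each library. The counting interval of Ccl22 and the floors of 3 counts cover counting error only. The other intervals come from the SEs, so they include the variation among the libraries. Replicates were no copies (chi-square per degree of freedom 11.9 to 50.6). All members are named; of the lists, up to 3 called genes with the largest changes per direction have values, and of likeness the 3 nearest genes are named. Gene symbols and positions come from GENCODE M21. The members, lists and markers were chosen with earlier results of these data known. Some items are not reported here.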

Additional observations from a re-analysis of the deposited data

How the results depend on the processing

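Of 63 member calls in the 10 comparisons, 53 were kept whichever library of the compared groups was left out, and no called direction turned round under any setting run. The number of members called moved by over 1.5 times in few places. With only the compared groups in the fit, 2 members instead of 1 were called for IL1b against IFNg and 8 instead of 5 (Ccl8, Ccl6 and Ccl9 added) for hypoxia against IFNg. Leaving out 1 library gave 0 to 1 calls for IL1b, and 3 to 5 instead of 6 for LPS against TNF. The cause was not tested. With the number in the titles as a replicate block, the counts of calls were 5 instead of 6 for LPS against TNF (Ccl2 lost) and 6 instead of 8 for IFNg with hypoxia against control (Ccl7 and Ccl22 lost); same-numbered libraries correlated at -0.095 to 0.233 in their deviations, so the numbers were not taken as pairs. Signs turned only in differences that were not called. Under the RPKM totals these were Ccl12 with LPS against IFNg (-0.08), Ccl4 with IL1b (-0.11) and LPS (-0.20) against control, and Ccl6 with hypoxia against control (-0.39, and -0.00 with the replicate block). Leaving out 1 library, the log2 fold changes against IFNg ran from -0.37 to 0.25 for Ccl8 with TNF, -0.10 to 0.16 for Ccl9 and -4.47 to 2.33 for Ccl22 with IL1b, and -0.13 to 0.29 for Ccl8 and -0.19 to 0.24 for Ccl12 with LPS. They ran from -0.18 to 0.45 for Ccl8 with LPS against TNF. Against control they ran from -0.02 to 0.12 for Ccl4 with IL1b, -0.01 to 0.09 for Ccl4 and -0.66 to 0.51 for Ccl22 with LPS, and -0.16 to 0.29 for Ccl6 with hypoxia. Depth limited Ccl22 with IFNg (9 counts in all) and hypoxia (2), and in control Ccl7 (0) and Ccl12 (5).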
